A study of Rattus norvegicus with 15 samples.

Results

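Smooth muscle contractile genes were followed through dispersed pancreatic islet cells that had received either a control microRNA mimic or a mimic of miR-17-5p. The set is a list of 10 rat gene symbols, Acta2, Tagln, Cnn1, Cnn2, Myl9, Mylk, Tpm1, Tpm2, Cald1 and Myh9, looked up in count tables of 17055 genes. Of these, 9 had a row in the tables (Cnn2 had none), and 8 had a count in any library: Myh9 was listed at 0 in all 15 libraries. The 8 genes with counts passed the filter on low counts in every comparison. The list was drawn up with the differences between miR-17-5p and control cells known, so those differences are given below as a description. Calls from tests over all genes are printed beside them, and no support is read from those calls. The comparison of Ago2-bound RNA with poly(A) RNA inside each group of cells is another contrast and is tested, but it uses the same libraries, and the list was drawn up with earlier results of these data known.

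The cells came from islets of 10-day-old (1.5 weeks) Sprague-Dawley rats, were dispersed, and were transfected in culture. RNA was taken in 2 forms: poly(A) mRNA selected from total RNA, and RNA recovered with an antibody against Ago2, the protein of the RNA-induced silencing complex (RISC) that carries microRNAs and the mRNAs they pair with. There were 3 mRNA libraries from control cells, 5 mRNA libraries from miR-17-5p cells, 3 RISC libraries from control cells and 4 RISC libraries from miR-17-5p cells. The labels speak of biological replicates, but a library's number in its title is often not the one in its description, and every RISC description gives the same number. The p-values below therefore reflect how much these libraries vary, which may be partly technical.

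Smooth muscle shortens when calcium and calmodulin switch on myosin light chain kinase, which phosphorylates the regulatory light chain of myosin and lets myosin pull on actin filaments. Tropomyosin, caldesmon and calponin lie along those filaments and restrain the interaction, and transgelin bundles them. The same genes are used by pericytes, by activated stellate cells and by myofibroblasts, cells that surround vessels and ducts in the pancreas, and are classically switched on by serum response factor with its myocardin-family partners at a DNA element called the CArG box.

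The microRNA that the mimic supplies is shown with its seed, bases 2 to 8 from the 5′ end, in capitals, because the seed is the part that pairs with a target mRNA. The sequence is that of Mir17 in RefSeq (GRCr8, chr15:98587861-98587883, plus strand).
rno-miR-17-5p: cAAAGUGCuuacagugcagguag
The same seed is carried by 5 distinct mature names among the 724 mature entries of the RefSeq table: miR-17-5p, miR-20a-5p, miR-20b-5p, miR-93-5p and miR-106b-5p.

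The RefSeq promoter table held 10 windows for 8 of the 10 genes, with no entry for Tagln or Myl9. Each window was searched over the 250 bases before the start for the CArG box, which is CC, then 6 bases that are each A or T, then GG, a motif that reads as itself on both strands. It was present in 1 gene, Cnn2, as CCTTATAAGG at 71 to 62 bases before the start, and 1.5% of all 33469 windows held it. A looser form, in which 1 of the 6 core bases is not A or T, was searched after the strict result had been seen, and it occurred in 1 gene, Acta2, which held it in 2 places. Of all windows, 6.84% held the looser form at least once and 0.43% held it at least 2 times. The Acta2 window (GRCr8, chr1:241172504-241172753, minus strand, written 5′ to 3′ toward the start) is shown with both looser boxes in capitals, at 134 to 125 and 84 to 75 bases before the start, since Acta2 is the gene on which several results below turn.
Acta2: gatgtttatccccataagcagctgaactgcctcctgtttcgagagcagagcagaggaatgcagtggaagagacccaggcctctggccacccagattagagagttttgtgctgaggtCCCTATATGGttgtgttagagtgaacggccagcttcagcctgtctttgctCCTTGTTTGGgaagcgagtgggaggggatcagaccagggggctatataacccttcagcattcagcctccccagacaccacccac
The 6-base element CATTCC, the core bound by TEAD factors, was found on either strand in 4 of the 10 windows of the listed genes and in 12.1% of all windows. Such matches describe letters in a window and were not tied to binding in these cells.

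Depth ran from 3379456 to 21056240 counts in the 8 mRNA libraries and from 4185123 to 13420403 in the 7 RISC libraries. The insulin genes, the defining markers of the labelled tissue, were abundant: Ins1 plus Ins2 made up 26.2% to 41.8% of each mRNA library and 0.947% to 1.97% of each RISC library. The ribosomal RNA precursor Rn45s made up 3.13% to 12.8% of the mRNA libraries and 23.6% to 42.6% of the RISC libraries. Genes with a count numbered 5589 to 7424 in the control RISC libraries and 9040 to 10753 in the miR-17-5p RISC libraries. The 8 contractile genes together took 0.171% ± 0.0503 (SD, n = 3) of all counts in control mRNA, 0.605% ± 0.160 (SD, n = 5) in miR-17-5p mRNA, 0.108% ± 0.0324 (SD, n = 3) in control RISC and 0.540% ± 0.151 (SD, n = 4) in miR-17-5p RISC. Every miR-17-5p library lay above every control library of the same kind. In bulk RNA such as this, more cells of a type and more RNA per cell cannot be told apart.

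In poly(A) RNA all 8 contractile genes were at higher levels in miR-17-5p cells than in control cells, by 2.87-fold to 5.19-fold, and for none of them did the groups overlap. Their median log2 fold change was 1.80, where the median of the 11077 genes tested was 0.01. edgeR's quasi-likelihood test called 8 of the 8 at an adjusted p under 0.05, where 3.11% of all genes tested were called higher, 0.767% lower and 3.87% in either direction. Non-overlapping groups occurred in 8.51% of all genes with miR-17-5p higher and in 6.68% with miR-17-5p lower. Since the list was made from this contrast, nothing about the genes is read from these shares. Levels are given as CPM, the read count of a gene normalised to the TMM-scaled size of its library.

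Acta2, the smooth muscle actin that forms the thin filament, stood at 696, 605 and 391 CPM in control mRNA replicates 1 to 3 and at 1511, 1990.2, 3103, 2215 and 2215 CPM in miR-17-5p mRNA replicates 1, 2, 4, 5 and 6. The lowest miR-17-5p library was above the highest control library. The group means were 564 ± 157 (SD, n = 3) and 2207 ± 578 (SD, n = 5) CPM, a log2 fold change of 1.97 ± 0.25 (SE). Reads from actins can be hard to assign, because actin genes share parts of their coding sequence, and the split between Acta2, Actg2, Actb and Actg1 is uncertain.

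Among the proteins bound to the filament, Tagln (transgelin) measured 583, 488 and 351 CPM in the 3 control libraries and 1195, 1613, 1973, 1504 and 1398 CPM in the 5 miR-17-5p libraries, a log2 fold change of 1.69 ± 0.20 (SE). Cnn1 (calponin 1) was at 32.3, 28.4 and 9.67 CPM in control cells and 80.0, 126, 185, 127 and 117 CPM in miR-17-5p cells. Its log2 fold change, 2.38 ± 0.36 (SE), was the highest of the 8, although Cnn1 was the gene with the fewest counts. Cald1 (caldesmon) was at 139.7, 129.7 and 117 CPM in control cells and 238, 372, 563, 319 and 365 CPM in miR-17-5p cells, with a log2 fold change of 1.53 ± 0.23 (SE). In each of these genes control replicate 3 was the lowest control, and replicate 4 was the highest miR-17-5p library.

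The tropomyosins are the rods that lie in the groove of the filament. Tpm1 measured 297, 276 and 214 CPM in control cells and 474, 661, 1087, 779.8 and 765 CPM in miR-17-5p cells, and its log2 fold change was 1.52 ± 0.23 (SE). Tpm2 measured 212, 138 and 78.3 CPM in control cells and 417, 512, 755, 542 and 496 CPM in miR-17-5p cells, with a log2 fold change of 1.92 ± 0.29 (SE). The spread among the controls was wider for Tpm2 than for Tpm1. Tropomyosin genes also share sequence with each other, so part of their reads may be assigned to the wrong gene or dropped.

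On the myosin side, Myl9, the regulatory light chain of smooth muscle myosin, was at 95.9, 71.3 and 60.2 CPM in control cells and 193, 266, 382, 279.9 and 254 CPM in miR-17-5p cells. Mylk, the kinase that phosphorylates that light chain, was at 49.0, 46.4 and 35.3 CPM in control cells and 122, 164, 194, 132 and 132 CPM in miR-17-5p cells. The kinase and its substrate thus had like differences, with log2 fold changes of 1.76 ± 0.18 (SE) and 1.85 ± 0.22 (SE). Myh9, the non-muscle myosin IIA heavy chain, was listed at 0 in every library, as was the essential light chain Myl6, a gene used by nearly all cells. No level is read from a 0 in every library.

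**Figure D1:**
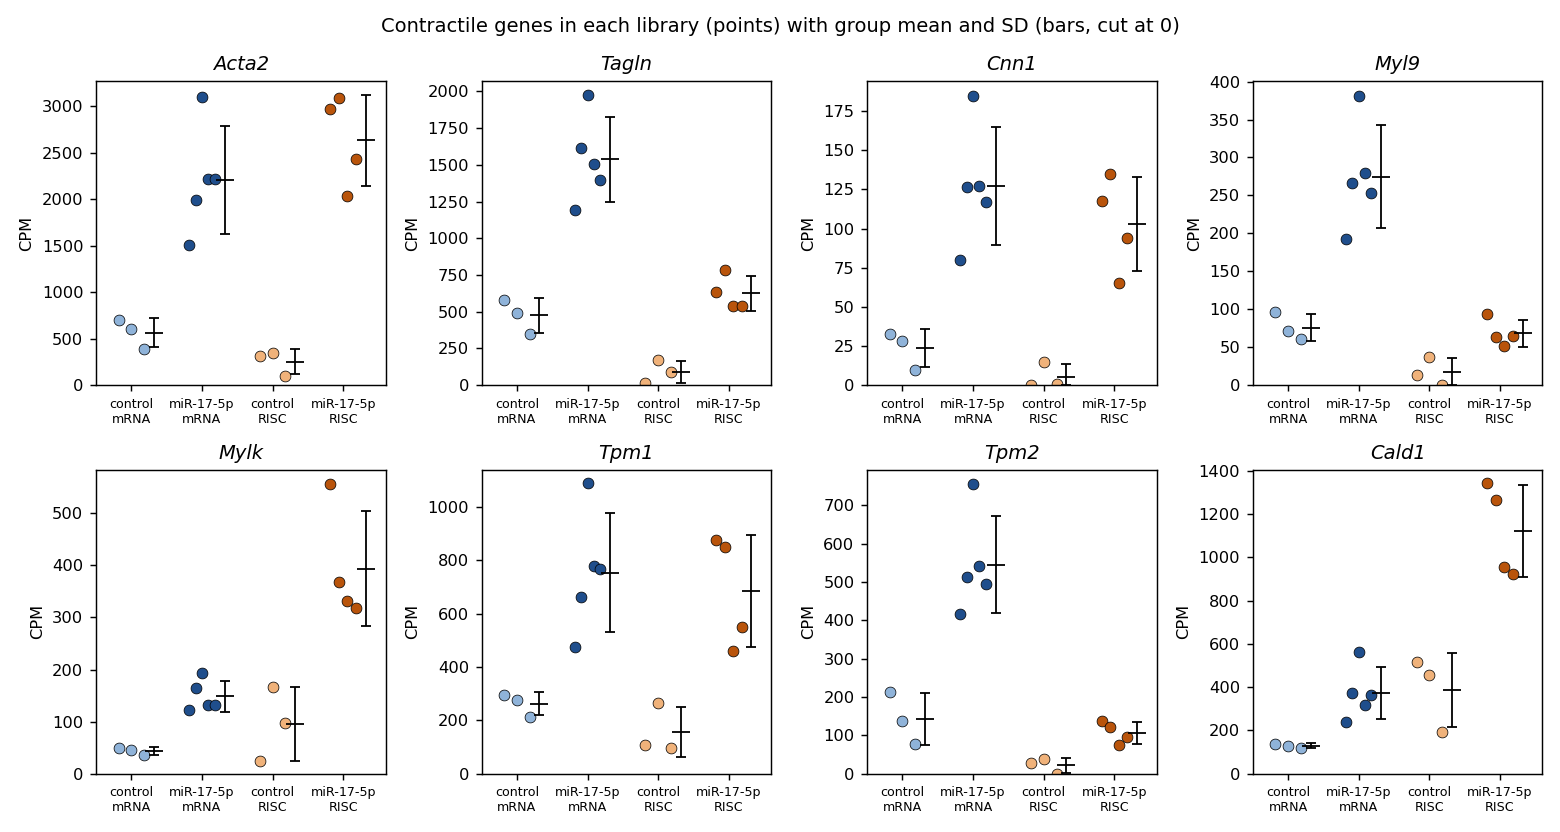
CPM of the 8 contractile genes on linear axes, 1 panel per gene and 1 point per library, with the group mean and SD as bars beside the points (cut at 0); mRNA and RISC libraries were scaled separately. The miR-17-5p libraries lie above the control libraries for all 8 genes in both kinds of RNA.

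The direction of all 8 genes was the same when any one of the 8 mRNA libraries was left out, and 8 of 8 were called each time. Since the list was drawn up with this contrast known, these repeated calls are a description and no support is read from them. A single fit of all 15 libraries, which shares 1 estimate of spread with the noisier RISC libraries, called 0 of the 8 with edgeR (8 at an unadjusted p under 0.05).

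RNA bound to Ago2 showed the same 8 genes at higher levels in miR-17-5p cells, with log2 fold changes from 1.53 to 4.37 and a median of 2.20, where the median of the 9443 genes tested was 0.27. Here too no gene had overlapping groups, in a comparison where 17.8% of all genes had every miR-17-5p library above every control library and 3.19% had every one below. edgeR called 1 of the 8, Acta2, at an adjusted p under 0.05, where 0.339% of all genes were called higher, 0.0318% lower and 0.371% in either direction. DESeq2's Wald test called 6 of the 8 and limma-voom 1. The shares above are edgeR's, and the shares of all genes called by the other tools are not given here. As in mRNA, these counts describe the contrast from which the list was drawn.

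Acta2 measured 318, 347 and 93.9 CPM in control RISC replicates 1 to 3 and 2968, 3086, 2033.5 and 2436 CPM in miR-17-5p RISC replicates 2, 4, 5 and 6. The means were 253 ± 138 (SD, n = 3) and 2631 ± 488 (SD, n = 4) CPM, a log2 fold change of 3.38 ± 0.45 (SE). The 4 miR-17-5p libraries differed among themselves far less than they differed from the controls. edgeR's call of Acta2 was lost when control RISC replicate 1, or miR-17-5p RISC replicate 2, 5 or 6, was left out, while its log2 fold change stayed between 3.32 and 3.54 in those 4 fits. Without control RISC replicate 2, 6 of the 8 genes were called, and the share of all genes called in that fit is not given here.

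Tagln was at 15.1, 169 and 86.7 CPM in control RISC and 635, 787, 539 and 535 CPM in miR-17-5p RISC, a log2 fold change of 2.79 ± 0.67 (SE). Cald1 was at 517, 456 and 195 CPM in control RISC and 1344, 1266, 954 and 925 CPM in miR-17-5p RISC, a log2 fold change of 1.53 ± 0.34 (SE), the same as in mRNA to 2 decimals. For Cnn1 the 3 control RISC libraries held 0, 113 and 2 counts, or 0, 14.5 and 0.376 CPM, against 117, 135, 65.2 and 93.8 CPM in miR-17-5p RISC. The control level of Cnn1 therefore came almost wholly from control RISC replicate 2, and its log2 fold change of 4.37 carries an SE of 1.67.

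Tpm1 measured 109, 265 and 94.8 CPM in control RISC and 877, 849, 462 and 549 CPM in miR-17-5p RISC, with a log2 fold change of 2.13 ± 0.43 (SE). Tpm2 measured 28.1, 38.5 and 0 CPM in control RISC and 137, 121, 73.6 and 95.5 CPM in miR-17-5p RISC, with a log2 fold change of 2.26 ± 1.27 (SE). The third control RISC library, the shallowest of the group, held no count for Tpm2 or for Myl9. In that library 3 counts would have been 0.717 CPM before TMM scaling, and the 2 counts of Cnn1 were 0.376 CPM after it. Such floors cover counting error only, while each SE also takes in the spread between libraries.

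Myl9 was at 13.5, 37.5 and 0 CPM in control RISC and 93.5, 63.7, 51.2 and 64.7 CPM in miR-17-5p RISC, a log2 fold change of 2.01 ± 1.38 (SE). Mylk was at 24.6, 166 and 97.1 CPM in control RISC and 557, 368, 332 and 319 CPM in miR-17-5p RISC, a log2 fold change of 2.04 ± 0.56 (SE). Mylk in control RISC was low in replicate 1 and high in replicate 2, with replicate 3 between them.

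The difference between both effects, RISC log2 fold change minus mRNA log2 fold change, was estimated from all 15 libraries and is given without a test. It was 1.40 ± 0.50 (SE) for Acta2, 1.09 ± 0.68 for Tagln and 1.95 ± 1.42 for Cnn1. For Tpm1 it was 0.60 ± 0.49, for Tpm2 0.32 ± 1.11, for Mylk 0.26 ± 0.59, for Myl9 0.14 ± 1.10 and for Cald1 -0.02 ± 0.43. The median of 11418 genes was 0.40, so Acta2, Tagln, Cnn1 and Tpm1 were above that median and the other 4 below it.

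**Figure D2:**
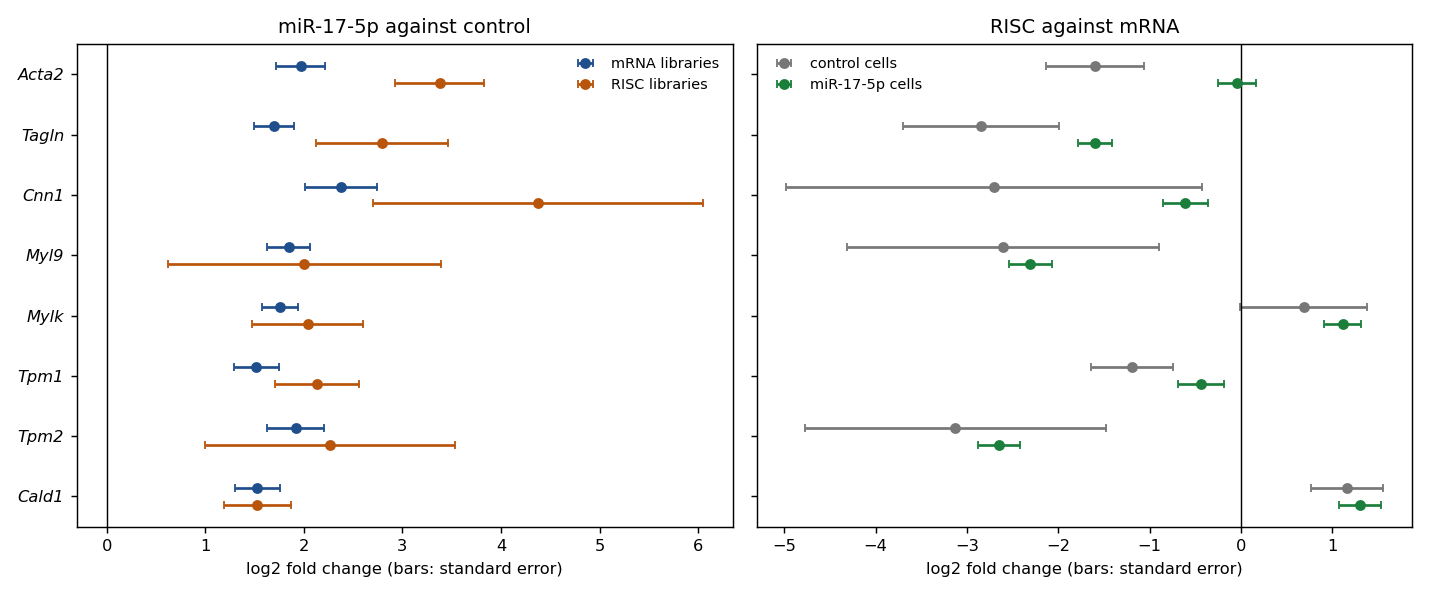
Log2 fold change (x axis) of each of the 8 genes, with its SE as a bar, for miR-17-5p against control in mRNA and RISC libraries (left) and for RISC against mRNA in control and miR-17-5p cells (right). All 8 genes lie above 0 on the left, and on the right Mylk and Cald1 lie above 0 in both kinds of cells while Tagln, Myl9 and Tpm2 lie below.

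Ago2-bound RNA and poly(A) RNA of the same kind of cell were then compared, which asks how strongly each contractile mRNA was represented in RISC relative to its level in the cell. Both kinds of library differ in preparation as well, since only the mRNA libraries were selected on poly(A), and that cannot be told apart from Ago2 binding. In miR-17-5p cells the 8 genes split by gene: Mylk and Cald1 were higher in RISC, Tagln, Myl9 and Tpm2 were lower, and Acta2, Cnn1 and Tpm1 did not pass the test. By edgeR's quasi-likelihood test with Benjamini-Hochberg adjustment over 10871 genes, 21.7% of all genes were higher and 21.8% were lower, so 5 calls among 8 genes stand beside a background of 43.5%. The same 5 genes were those without overlap between the groups, and non-overlap occurred in 19.1% of all genes for RISC higher and in 25.7% for RISC lower. The CPM in these paragraphs come from the fit of both kinds of library together and differ somewhat from those above.

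Cald1 was at 1182, 1061, 875 and 769 CPM in the 4 miR-17-5p RISC libraries and at 255, 395, 601, 338 and 390.1 CPM in the 5 miR-17-5p mRNA libraries. Its log2 difference, RISC minus mRNA, was 1.30 ± 0.23 (SE; edgeR adjusted p = 0.000788). Mylk was at 489.8, 308, 305 and 265 CPM in RISC and 131, 174, 207, 139 and 141 CPM in mRNA, with a log2 difference of 1.11 ± 0.20 (SE; edgeR adjusted p = 0.00104). Every RISC library exceeded every mRNA library for both genes. For Mylk the call ended in the fit of all 15 libraries, where the log2 difference was 0.94 and the edgeR adjusted p was 0.0893.

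Tpm2 was at 121, 101, 67.6 and 79.4 CPM in RISC and 447, 543, 805, 574 and 529.7 CPM in mRNA, with a log2 difference of -2.65 ± 0.23 (SE; edgeR adjusted p = 4.48e-06). Myl9 was at 82.2, 53.4, 47.0 and 53.8 CPM in RISC and 206, 283, 407, 297 and 271 CPM in mRNA, with a log2 difference of -2.31 ± 0.23 (SE; edgeR adjusted p = 1.3e-05). For Tagln the means were 539 ± 92.3 (SD, n = 4) CPM in RISC and 1637 ± 306 (SD, n = 5) CPM in mRNA, with a log2 difference of -1.60 ± 0.18 (SE; edgeR adjusted p = 3.44e-05). These 3 genes were called in each of 17 alternative analyses, with ranges of -2.81 to -2.50 for Tpm2, -2.51 to -2.16 for Myl9 and -1.76 to -1.49 for Tagln.

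Acta2 stood at 2272 ± 382 (SD, n = 4) CPM in RISC and 2351 ± 615 (SD, n = 5) CPM in mRNA of miR-17-5p cells. Its log2 difference was -0.05 ± 0.21 (SE; edgeR adjusted p = 0.872), and its sign turned in 3 of the alternatives. Cnn1 differed by -0.61 ± 0.25 (SE; edgeR adjusted p = 0.0677) and Tpm1 by -0.44 ± 0.25 (SE; edgeR adjusted p = 0.183) on the log2 scale. The median gene differed by -0.15, which moved to -0.26 with DESeq2 size factors. Acta2 thus lay within 1 SE of the median gene.

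In control cells edgeR called 0 of the 8 genes at an adjusted p under 0.05, where 28.2% of 10170 genes were called in either direction, 5.96% higher and 22.3% lower. Of the 8, 4 passed an unadjusted p under 0.05 (Acta2, Tagln, Tpm1 and Cald1). DESeq2's Wald test called 3 (Acta2, Tagln and Tpm1, all lower in RISC) and limma-voom called 2 (Tagln lower, Cald1 higher). The 28.2% is edgeR's share, and those of the other tools are not given here. The groups did not overlap for 6 genes: Acta2, Tagln, Myl9, Tpm1 and Tpm2 were lower in every RISC library and Cald1 was higher in every one. Such a pattern occurred in 39.9% of all genes for lower and 12.0% for higher.

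The log2 difference in control cells was 1.16 ± 0.39 (SE; edgeR adjusted p = 0.0880) for Cald1 and 0.69 ± 0.70 (SE; edgeR adjusted p = 0.630) for Mylk. It was -2.85 ± 0.85 (SE; edgeR adjusted p = 0.0587) for Tagln, -1.60 ± 0.54 (SE; edgeR adjusted p = 0.0880) for Acta2 and -1.19 ± 0.45 (SE; edgeR adjusted p = 0.117) for Tpm1. The genes with few RISC counts had the widest errors, with -3.13 ± 1.65 for Tpm2, -2.60 ± 1.71 for Myl9 and -2.70 ± 2.28 for Cnn1. The median over all genes tested was -0.69, and the median of the 8 genes was -2.10. With control RISC replicate 2 left out the Mylk difference became -0.03 and edgeR called 3 of the 8 genes, and 3 were also called without control RISC replicate 3.

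The make-up of the set was taken as the percent of the counts of the 8 genes that each gene took. These shares are not per transcript length, so they are compared for 1 gene across groups and not between genes. Cald1 took 7.73% ± 1.39 (SD, n = 3) of these counts in control mRNA and 6.15% ± 0.607 (SD, n = 5) in miR-17-5p mRNA, against 38.4% ± 10.6 (SD, n = 3) in control RISC and 19.6% ± 1.19 (SD, n = 4) in miR-17-5p RISC. Tagln took 27.7% ± 0.269 and 26.1% ± 2.09 in control and miR-17-5p mRNA, against 9.35% ± 7.10 and 11.0% ± 1.17 in RISC. Cald1 was thus the gene with the larger part in RISC and Tagln the one with the larger part in mRNA, whichever mimic was given.

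Mylk, like Cald1, took a larger mean part in RISC, with 2.58% ± 0.240 and 2.53% ± 0.327 in control and miR-17-5p mRNA and 10.2% ± 7.39 and 6.87% ± 1.20 in RISC, although in control RISC replicate 1 it took 2.40%. Tpm2, like Tagln, took a smaller part in RISC, with 8.03% ± 1.95 and 9.16% ± 0.451 in mRNA and 1.77% ± 1.54 and 1.85% ± 0.172 in RISC. Acta2 took 32.7% ± 1.45 in control mRNA and 36.9% ± 1.52 in miR-17-5p mRNA, then 23.6% ± 7.24 in control RISC and 46.0% ± 1.91 in miR-17-5p RISC. Acta2 was therefore lowest in the control RISC libraries and highest in the miR-17-5p RISC libraries.

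**Figure D3:**
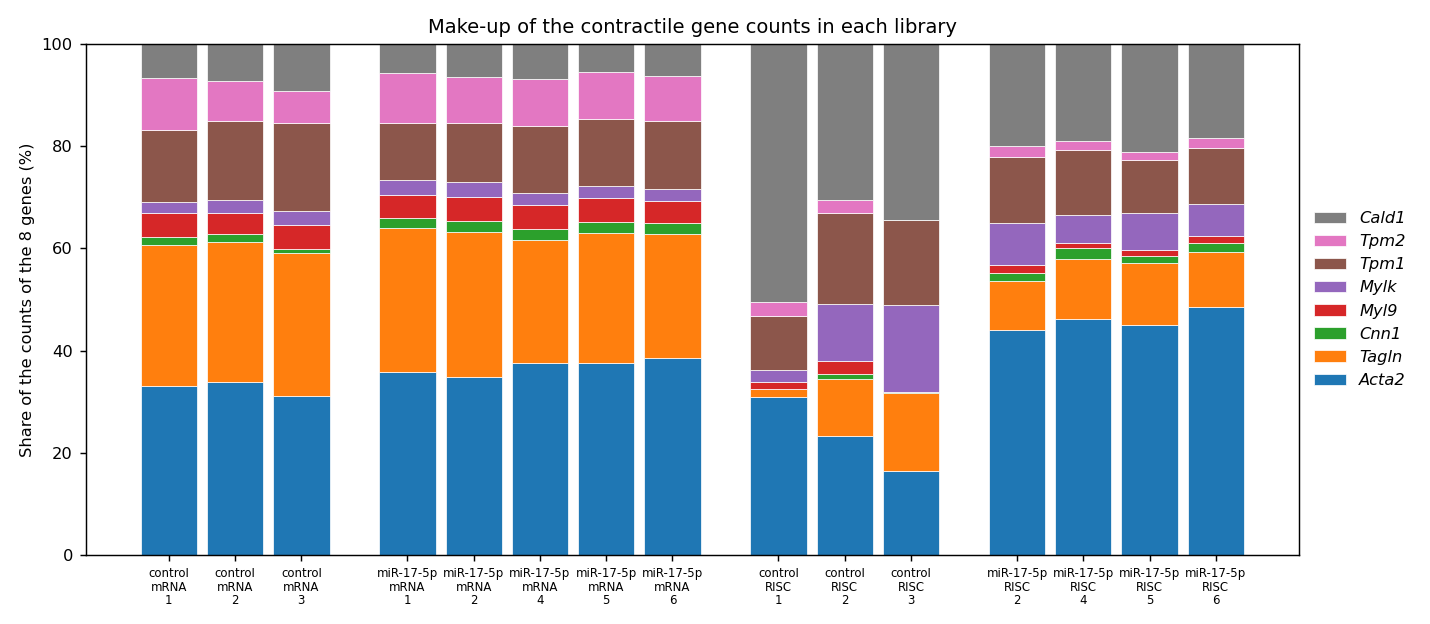
Percent of the counts of the 8 contractile genes taken by each gene, as stacked bars, 1 per library, grouped by mimic and kind of RNA. Cald1 takes a larger part of every RISC bar than of any mRNA bar, and Tagln, Myl9 and Tpm2 a smaller one.

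Other genes of the contractile apparatus followed from a list of 16 assembled for smooth muscle, of which 15 were tested in mRNA. Of these, 7 were called higher and 1 lower in miR-17-5p cells, beside 3.11% and 0.767% of all genes. The median log2 fold change of the 15 was 1.22. This list and those of paralogues and regulators were chosen with earlier results of these data known. Actg2, enteric smooth muscle actin, went from 54.7 to 242 CPM (log2 2.13 ± 0.30 SE) and Myh11, the smooth muscle myosin heavy chain, from 19.4 to 63.4 CPM (log2 1.70 ± 0.38 SE). Lmod1, which nucleates actin filaments, differed by 1.69 ± 0.25, Des (desmin), the muscle intermediate filament, by 1.69 ± 0.34 and the LIM protein Csrp1 by 1.11 ± 0.20. Pdlim7 and Smtn were the other genes called higher, and Synpo2, an actin-bundling protein, was lower at -0.58 ± 0.15, these 3 being named after their values were seen. The number called went from 8 to 2 when control replicate 2 or 3 was left out and to 5 without miR-17-5p replicate 4, 5 or 6, and the fit of all 15 libraries called 0 with edgeR (4 at an unadjusted p under 0.05).

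Paralogues of the listed genes numbered 13, most of them non-muscle forms, with 11 tested in mRNA and a median log2 fold change of 0.50. Of these, 6 were called higher and 0 lower (9 at an unadjusted p under 0.05), beside 3.11% and 0.767% of all genes. Myl12a, a non-muscle regulatory light chain, differed by 1.10 ± 0.17 (SE), Tpm4 by 1.04 ± 0.18, the cytoplasmic actins Actb and Actg1 by 0.94 ± 0.20 and 0.69 ± 0.17, and calponin 3 (Cnn3) by 0.69 ± 0.15. Tagln3 (-1.21 ± 0.48) and Myh14 (-0.68 ± 0.27), named after their values were seen, were lower in miR-17-5p libraries without overlap but did not pass the test. Whether paralogues differ less than the 8 contractile genes was not tested. The number called went from 6 to 1 when control replicate 2 or 3 was left out and to 2 without miR-17-5p replicate 4 or 5.

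Regulators of contraction and of this gene set numbered 21, with 18 tested in mRNA and a median log2 fold change of 0.11. Of these, 5 were called higher and 0 lower (7 at an unadjusted p under 0.05), beside 3.11% and 0.767% of all genes. The 5 were Fhl1 (1.98 ± 0.36 SE) and Fhl2 (1.42 ± 0.28), LIM proteins of muscle, Ctgf (1.47 ± 0.28) and Cyr61 (1.21 ± 0.22), secreted matrix proteins known as targets of YAP, and Klf4 (1.39 ± 0.31), a transcription factor known to repress smooth muscle genes. Srf itself, named for its role and not by the rule, differed by 0.05 ± 0.14. With control replicate 2 or 3 left out, edgeR called 0 regulators.

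**Figure D4:**
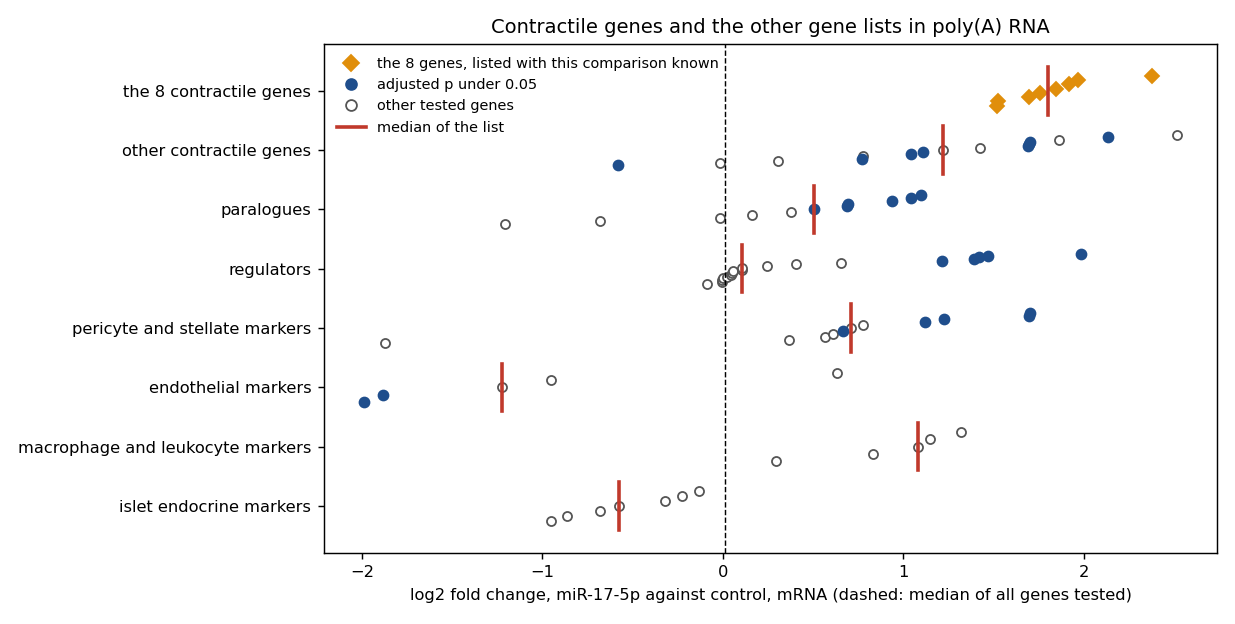
Log2 fold change in mRNA, miR-17-5p against control, of each tested gene of each list, with a bar at the list's median and a dashed line at the median of all genes tested; filled circles passed an adjusted p under 0.05, and the 8 contractile genes are diamonds because they were listed with this comparison known. The medians were 1.80 for the 8 genes, 1.22 for other contractile genes, 0.50 for paralogues and 0.11 for regulators.

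In RISC, miR-17-5p against control, edgeR called 0 of 12 other contractile genes (6 at an unadjusted p under 0.05; 5 by DESeq2, 0 by limma-voom), 1 of 11 paralogues (Actb, 1.10 ± 0.17 SE) and 0 of 19 regulators (4 at an unadjusted p under 0.05; 3 by DESeq2, 0 by limma-voom). Of all genes tested there, edgeR called 0.371% in either direction. In RISC against mRNA of miR-17-5p cells, edgeR called 5 of 11 paralogues, 7 of 15 other contractile genes and 10 of 19 regulators, shares near the 43.5% of all genes called. Among paralogues, Myl12a (-2.93 ± 0.20), Myl12b (-2.28 ± 0.20), Tagln2 (-1.81 ± 0.15) and Tpm3 (-0.97 ± 0.15) were lower in RISC on the log2 scale, and Myh10, a non-muscle myosin heavy chain, was higher (0.99 ± 0.13). Tagln3, at -0.39 ± 1.12, did not pass the test.

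Other contractile genes in the same comparison included 1 higher, Synpo2 (2.29 ± 0.18 SE), and 6 lower of 15 tested, among them Pdlim7 (-2.30 ± 0.20), Csrp2 (-1.82 ± 0.23) and Des (-1.72 ± 0.31). Mustn1 was among the 6 with 0 counts in all 4 RISC libraries and a mean of 2.57 CPM in mRNA, and no fold is given. Of 19 regulators, 5 were higher and 5 lower in RISC, beside 21.7% and 21.8% of all genes. Ppp1r12a, the targeting subunit of myosin phosphatase that opposes Mylk, was higher by 1.79 ± 0.21, as were Cyr61 (1.64 ± 0.19) and the guanine nucleotide exchange factor Arhgef12 (1.47 ± 0.19). Ppp1ca, a catalytic subunit of protein phosphatase 1, was lower by -1.81 ± 0.18.

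In control cells the same comparison gave 1 higher and 4 lower of 12 other contractile genes, 0 higher and 2 lower of 11 paralogues, and 1 higher and 2 lower of 18 regulators, beside 5.96% of all genes higher and 22.3% lower. Synpo2 was again higher (2.29 ± 0.27 SE), as was Ppp1r12a (1.64 ± 0.40). Tagln2 (-1.66 ± 0.21), Csrp1 (-2.10 ± 0.35), Pdlim7 (-1.95 ± 0.42) and Rhoa (-1.65 ± 0.35) were lower. The other 4 genes called lower had few or no RISC counts, and no fold is given: Ppp1r14a and Nexn had 0 counts in all 3 control RISC libraries against means of 6.04 and 4.27 CPM in mRNA, and Myh14 and Fhl2 had means of 0.0378 and 0.0754 CPM in RISC against 20.5 and 22.1 CPM in mRNA.

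Markers of the cells that could carry these genes are given beside them. In mRNA, 5 of 11 tested pericyte and stellate markers (12 listed) were higher in miR-17-5p cells and 0 lower (6 of 11 at an unadjusted p under 0.05), beside 3.11% of all genes called higher, with Col1a1 at 1.23 ± 0.27 (SE), Thy1 at 1.12 ± 0.18 and Pdgfrb at 0.67 ± 0.17 on the log2 scale, beside Myh11 and Des, which the list of contractile genes also holds. The other 6, Pdgfra, Rgs5, Cspg4, Col3a1, Dcn and Lum, had overlapping groups and did not pass the test, and Rgs5, a pericyte marker, was at -1.87 ± 1.07. The summed level of the list was 6921 to 12148 CPM in control and 11122 to 24754 CPM in miR-17-5p mRNA, which overlapped, and 3133 to 7115 CPM in control and 13492.5 to 16411 CPM in miR-17-5p RISC, which did not. Most of that sum came from both collagens: in miR-17-5p cells Col1a1 averaged 13952 CPM in mRNA and 7794 CPM in RISC, and Col3a1 averaged 3995 and 6763 CPM. Col1a2 was at 0 in all libraries. In RISC edgeR called 1 of 10 tested markers of this list (3 at an unadjusted p under 0.05), beside 0.339% of all genes called higher. It was Col1a1, at 2.35 ± 0.29 (SE; edgeR adjusted p = 0.0191). Of the 10, 5 were higher without overlap, beside 17.8% of all genes. The part of these cells in the result was not tested.

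The 8 genes were also set against the pericyte and stellate markers library by library, as the mean log2 CPM of the genes minus that of the markers. The difference was 1.31, 1.45 and 0.62 in control mRNA replicates 1 to 3 and 2.27, 2.19, 2.58, 2.53 and 2.21 in miR-17-5p mRNA replicates 1, 2, 4, 5 and 6. All 5 miR-17-5p libraries were above all 3 control libraries by this measure. In RISC it was -0.62, 1.12 and 0.09 in control and 1.67, 1.63, 1.13 and 1.00 in miR-17-5p, so the groups overlapped there. Because the 8 genes were listed with the miR-17-5p differences known, these orders are a description and nothing is read from them.

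Of 5 endothelial markers, Kdr (-1.99 ± 0.44 SE) and Cdh5 (-1.88 ± 0.36) were lower in mRNA, beside 0.767% of all genes called lower. Pecam1, Vwf and Tek did not pass the test (Tek at 0.63 ± 1.18). The summed level of the list was 35.0 to 57.2 CPM in control and 7.70 to 25.3 CPM in miR-17-5p cells. Macrophage and leukocyte markers summed to 19.0 to 102 CPM in control mRNA and 49.1 to 142 CPM in miR-17-5p mRNA, with 0 of 5 called by edgeR (1 at an unadjusted p under 0.05). In RISC they summed to 0.188 to 73.9 CPM in control and 235 to 348 CPM in miR-17-5p cells. There edgeR called 1 of 5, Lcp1 (edgeR adjusted p = 0.0257), beside 0.339% of all genes called higher. Lcp1 averaged 0.0214 CPM in control RISC. All 5 were higher without overlap, beside 17.8% of all genes. Their median log2 fold change in RISC was 2.78, where that of the 8 contractile genes was 2.20. Of 7 islet endocrine markers, edgeR called 0 in mRNA (4 at an unadjusted p under 0.05), all 7 log2 fold changes were below 0, and the sums of 381515 to 452306 CPM in control and 269245 to 489698 CPM in miR-17-5p cells overlapped. Of acinar and duct markers, 0 of 2 (0 at an unadjusted p under 0.05) and 1 of 2 tested were called by edgeR in mRNA, the last being Epcam (-0.66 ± 0.13).

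Within the groups the 8 genes varied together from library to library. Each library's deviation from its group mean, averaged over the 8 genes on the log2 scale, was 0.36, 0.11 and -0.47 in control mRNA replicates 1 to 3 and -0.47, 0.01, 0.52, -0.01 and -0.05 in miR-17-5p mRNA replicates 1, 2, 4, 5 and 6. Over the 8 libraries, the correlation of each gene's deviations with the mean of the others ran from r = 0.82 (Cald1) to r = 0.98 (Acta2), with Spearman coefficients from 0.69 to 0.93. For each gene, the 2 libraries in which the mean of the others lay farthest from its median were then left out. With them left out, r ran from 0.79 (Mylk) to 0.98 (Tpm2). These are descriptions without a test: the points share each library's depth and scaling, and the deviations sum to 0 within a group.

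By the same measure the mean deviation of the 8 genes correlated with that of the other contractile genes at r = 0.97 (Spearman 0.88; r = 0.95 without those 2 libraries) and with the paralogues at r = 0.90 (Spearman 0.86; r = 0.82 without them). For the regulators r was 0.87 (Spearman 0.69; r = 0.84 without them) and for the macrophage and leukocyte markers 0.64 (Spearman 0.52; r = 0.47 without them). For the pericyte and stellate markers r was 0.61 (Spearman 0.69), which became 0.08 without the 2 libraries, so that relation rested on them. With the percent of counts from Ins1 and Ins2 r was -0.82 (Spearman -0.88; r = -0.58 without the 2 libraries). Both quantities are parts of the same library total. For the 7 islet endocrine markers, which include Ins1 and Ins2, r was -0.54 (Spearman -0.36) and became 0.25 without the 2 libraries. Endothelial markers had r = 0.39 (Spearman 0.19; r = -0.48 without them). Acinar markers had r = 0.42 (Spearman 0.62; r = 0.36 without them), and duct markers r = -0.18 (Spearman -0.17; r = 0.27 without them).

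Of 5942 genes outside the list that averaged 4 or more in log2 CPM, the 6 whose deviations were most like those of the 8 genes were Tgfb3, Pnp, Vim, Tnrc18, Ltbp2 and Nuak1, with r from 0.974 to 0.983 over 8 libraries, where the median gene had r = -0.03. Their own log2 fold changes in mRNA ranged widely, from 0.13 ± 0.13 (SE) for Tnrc18 and 0.78 ± 0.18 for Pnp to 1.61 ± 0.22 for Tgfb3, a TGF-beta ligand, and 1.89 ± 0.24 for Ltbp2, a matrix protein. Vim (vimentin), an intermediate filament of mesenchymal cells, differed by 1.01 ± 0.22, and the kinase Nuak1 by 1.54 ± 0.23.

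The order of the 4 groups was not the same for every gene. Each comparison was scaled on its own, so this order was read across separate scalings. Tagln, Myl9 and Tpm2 were at their highest in miR-17-5p mRNA, and Mylk and Cald1 at their highest in miR-17-5p RISC. For Acta2, Cnn1 and Tpm1 the values of miR-17-5p mRNA and miR-17-5p RISC overlapped, and for Cnn1 and Mylk so did those of control mRNA and control RISC.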

How the data were processed

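Libraries were non-strand-specific and single-end, from oligo(dT)-selected RNA or from Ago2 immunoprecipitates without a stated poly(A) step, per the labels' protocols. The submitters' processing notes name the build rn5 and the tools Bowtie2, TopHat2 2.0.10 and HTSeq. The authors deposited 1 raw count per gene and library. HTSeq's summary lines were kept out of library sizes: alignments that were not unique were 15.0% to 31.2%, and ambiguous reads 0.151% to 0.454%. Without strand, reads of overlapping genes cannot be told apart. No pair of replicates agreed within sampling noise (chi-square per degree of freedom 7.08 to 327).

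From the counts, edgeR 4.0.16 (R 4.3.3) gave TMM-scaled CPM and quasi-likelihood tests, with filterByExpr on low counts and robust dispersion, on the libraries of each comparison, and Benjamini-Hochberg adjustment over all genes tested. SE is the log2 fold change divided by the square root of F. DESeq2 1.42.0, limma-voom 3.58.1, DESeq2 size factors, tests of unfiltered genes or of those averaging 50 counts or more, removal of Ins1, Ins2 and Rn45s, a replicate block, leaving out each library and a fit of all 15 libraries (added after seeing the data) were alternatives. The test was checked on simulated data. The deposited summary tables of the whole series were not used. Sequences come from RefSeq tables of GRCr8; transcripts and proteins were not used here.

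The members and all gene lists were chosen with earlier results of these data known. Named genes are the 10 listed, up to 5 called genes per list and comparison with the largest absolute log2 fold change (or the 2 with the smallest p where none was called), and the 6 most alike by correlation.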

Additional observations from a re-analysis of the deposited data

How the results depend on the processing

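The 8 contractile genes stayed above 0 in mRNA and in RISC, miR-17-5p against control, under every alternative that was run. Counts of called genes were less stable. They are given in the order contractile genes, other contractile genes, paralogues, regulators. The share of all genes called under each alternative is not given here, so no background stands beside these counts. The fit of all 15 libraries with edgeR called 0, 0, 0 and 0 in mRNA (8, 4, 5 and 3 at an unadjusted p under 0.05), 6, 8, 5 and 4 in RISC, and 6, 10, 7 and 8 in RISC against mRNA of control cells; in miR-17-5p cells it called 4 other contractile genes and 6 regulators. DESeq2's Wald test called 6, 5, 4 and 3 in RISC, and, in control cells, 3 contractile genes, 4 paralogues and 6 regulators. limma-voom called 2 contractile genes and 4 paralogues in control cells. Without a filter, 2 contractile genes and 1 regulator were called in RISC, and with a mean of at least 50 counts 3 other contractile genes in control cells.

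Leaving out 1 library at a time gave 8 to 8, 2 to 8, 1 to 6 and 0 to 5 in mRNA, 0 to 6, 0 to 3, 0 to 5 and 0 to 3 in RISC, 0 to 3, 4 to 8, 1 to 6 and 0 to 7 in RISC against mRNA of control cells, and 5 to 6, 7 to 8, 5 to 5 and 8 to 12 in miR-17-5p cells. Signs turned for Mylk in control cells (-0.030 without control RISC replicate 2, 1.135 at the other end) and for Acta2 in miR-17-5p cells (0.022 without Ins1, Ins2 and Rn45s; leaving out a library gave -0.16 to 0.11, with 0.11 without miR-17-5p mRNA replicate 4, 0.03 without miR-17-5p RISC replicate 5). The cause of these changes was not tested, and a fit that leaves out a library also rests on fewer of them.

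The deviations of same-numbered libraries correlated at r from -0.19 to 0.05 over all genes. Values this small cannot decide whether the numbers pair the libraries, and the main fits used no pairing. With the replicate number as a block, edgeR called 0, 0, 0 and 0 in mRNA (8, 4, 1 and 3 at an unadjusted p under 0.05) and, in control cells, 1, 2, 1 and 0 (6 regulators at an unadjusted p under 0.05). No paired analysis was possible for miR-17-5p against control in RISC because the groups share only number 2. Low counts in control RISC limit Cnn1, Myl9 and Tpm2. For Cnn1, control RISC replicate 1, the deepest RISC library at 13420403 counts, held 0 counts. Replicate 2, at 8662423 counts, held 113. The cause of this difference was not tested.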
